A study of Saccharomyces cerevisiae with 4 samples.

Results

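The genes described here serve the yeast secretory pathway: the translocon that admits proteins to the endoplasmic reticulum (ER), the COPII and COPI vesicle coats, the receptors that load cargo, and the machinery that docks and fuses vesicles. They were chosen by symbol with earlier results of these data known, though the rule itself uses no measured value. It takes the SEC genes other than SEC53 and SEC59, EXO70 and EXO84, the ERV and EMP genes, and COP1, RET1, RET2, RET3, SAR1, ARF1, ARF2, YPT1, SSS1, SBH1, ERP1 and ERP2. Of 61 such symbols in NCBI RefSeq's gene table, 59 had a row among the 6207 yeast rows of the arrays, and SBH1 and ERP1 were not analysed here. Values on 3 or 4 arrays were present for 53 of the 59, among 4090 such rows in all. The label holds for most members, with exceptions. RET1 is now the symbol of an RNA polymerase III subunit, while alpha-COP, which once carried that name, is COP1. ERV1 encodes a mitochondrial sulfhydryl oxidase, ERV2 an ER thiol oxidase and EMP70 an endosomal membrane protein. These are kept apart as members of other function, together with EMP65.

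All samples were Saccharomyces cerevisiae cells of a hog1 mutant, altered in the gene of the mitogen-activated protein kinase of the osmotic stress pathway (allele and mating type not stated). The groups were portions of the same cultures, grown at 24 °C in YEPD, a rich medium: one portion without addition and the other with Zymolyase 100T, a wall-digesting enzyme preparation, at 5 units/ml, with RNA taken at 3 h. Both groups therefore carried the hog1 mutation, and no wild-type strain was analysed here. RNA of 2 cultures was hybridised to 4 arrays with 2 dyes. Cy3 marked the treated RNA on arrays 1 and 3; on arrays 2 and 4 the dyes were exchanged, so that Cy5 did.

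Secretory proteins enter the ER through the Sec61 channel, either while they are made, guided by the signal recognition particle, or afterwards, with Sec62, Sec63, Sec66 and Sec72. COPII vesicles bud from the ER under the small GTPase Sar1, COPI vesicles return material to it under Arf, and vesicles from the Golgi are tethered to the bud membrane by the exocyst before SNARE proteins fuse them. In yeast this route carries wall proteins and wall-building enzymes to the surface.

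Ratios are given as log2 of Zymolyase over untreated, after the sign was turned on arrays 2 and 4. This direction is likely but not stated; were untreated RNA the numerator, each sign below would be reversed. HOG1 had no value on any array, so the strain could not be checked. PRM1 and FIG1, genes induced during mating, and PGU1, a gene of filamentous growth, had log2 ratios of 6.51 ± 3.01, 5.40 ± 0.88 and 5.38 ± 0.72 (SD, n = 4 arrays), so large ratios were within the reach of these arrays. The arrays gave values for 2794 (array 1) to 5322 (array 3) yeast rows, and array 1 lacked a value for each of the 11 members with 3 values. A gene's log2 ratio is the mean of its Cy3-treated and Cy5-treated means, and the value after ± is the SD over arrays. This SD includes any gap between dye orientations, and the arrays share cultures. It describes a spread and is not the error of the log2 ratio. The number of arrays limits the precision. Changes in cell number and in RNA per cell cannot be told apart in such bulk samples. Which arrays came from the same culture is not labelled. Each test was made for both pairings that join a Cy3-treated with a Cy5-treated array, and the larger p was kept. The pairing of arrays of like dye orientation was not tested.

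No secretory member passed the test for a change under Zymolyase. Of the 42 members with 4 values, 0 were called by limma at an adjusted p under 0.05, where 2.21% of all 2715 genes with 4 values were called. Of the 53 members with 3 or 4 values, again 0 were called, against 1.52% of 4090 genes. At an unadjusted p under 0.05 there were 3 of the 42 members, EMP47, SEC15 and SEC61 (7.14%), against 14.7% of the 2715 genes. The lowest adjusted p of a member was 0.27.

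The members' ratios were small. Their median log2 ratio was 0.01, against −0.05 for all 4090 rows. Above 0 were 28 members and below 0 were 25, against 1697 and 2393 of all rows. The members ran from −0.35 for ERV14 to 0.56 for SEC15, a span of 1.27-fold lower to 1.47-fold higher. One member, SEC15, had a ratio of at least 0.5 in size (1.89%), against 7.24% of all rows. The median size of a member's ratio was 0.14, below the median SD over arrays of 0.26; in all rows these were 0.17 and 0.30. The ratio exceeded its own SD in 8 of 53 members (15.1%), against 27.0% of all rows.

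The 95% intervals give a range for the mean of 2 cultures, with a spread largely borrowed from all tested rows. Over the 42 members with 4 values they reached a median of 0.35 to either side of the ratio, and 39 intervals lay wholly within 1 of 0 on the log2 scale, that is within 2-fold. Those of SEC15, SEC23 and SEC24 reached past 1. Differences between dye orientations average out within a pair of arrays and do not widen the intervals. SSS1, with an SD of 0.78 over arrays, had −0.11 to 0.55, and SEC31, with an SD of 0.06, had −0.27 to 0.38. A miss of the threshold does not show that the levels were equal.

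**Figure D1:**
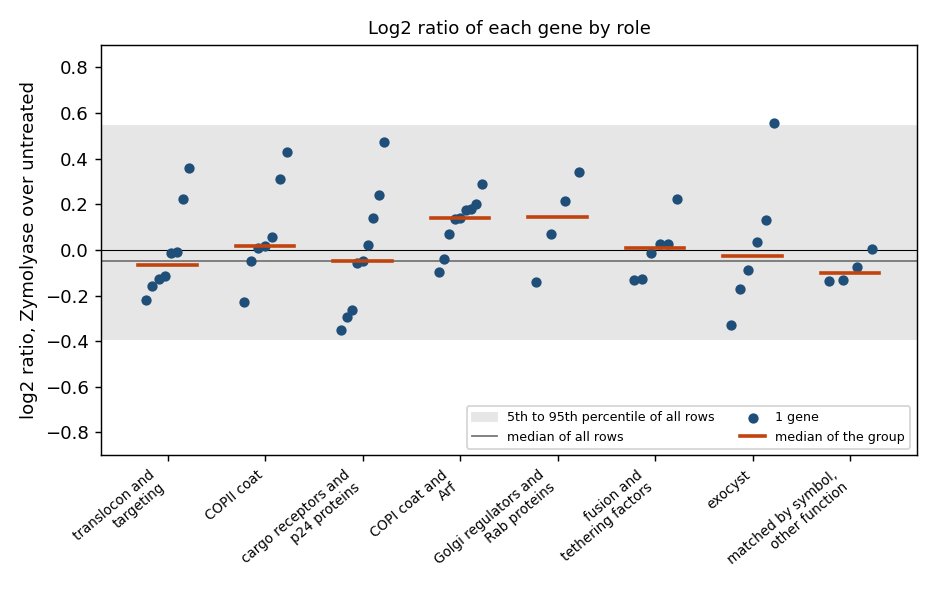
Log2 ratio of Zymolyase over untreated (vertical axis) for each of the 53 secretory members with 3 or 4 values, by role (horizontal axis); points are genes, red bars the medians of the roles, the grey band the 5th to 95th percentile of all 4090 rows (−0.39 to 0.54), and the grey line their median of −0.05. SEC15 of the exocyst, at 0.56, is the one member outside the band.

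Few members kept 1 sign across arrays. All values were above 0 in 4 of 53 members (SEC61, EMP47, SEC21 and SEC1), where 10.4% of all rows did so. All were below 0 in 5 members (EXO84, ERV41, ERV1, SEC9 and SEC17), against 15.6% of all rows. The shares among members were 7.5% and 9.4%. Between arrays of the same dye orientation, the 42 members with 4 values correlated at Pearson r = 0.26 (arrays 1 and 3) and 0.08 (arrays 2 and 4), against 0.54 and 0.69 over all 2715 genes. Between arrays of opposite orientation they correlated at −0.10 (1 and 2), 0.03 (1 and 4), −0.48 (2 and 3) and 0.31 (3 and 4), against 0.57, 0.51, 0.24 and 0.42. The members' Pearson r was the lower in all 6 pairs. By Spearman rank correlation the members' value was higher for arrays 3 and 4, at 0.34 against 0.18, and lower in the other pairs. Over all 2715 genes the Spearman values were 0.36 (arrays 1 and 3) and 0.43 (arrays 2 and 4) within an orientation. Between orientations they were 0.13 (1 and 2), 0.16 (1 and 4), −0.0 (2 and 3) and 0.18 (3 and 4). By rank, arrays of opposite orientation thus agreed little over all genes too. These are correlations across genes, which are not independent, from arrays that share cultures and dyes, and they are given as a description.

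Of the translocon and targeting genes, 8 had values on all arrays, with a median log2 ratio of −0.06. SEC61, the channel itself, had the smallest SD of the 4 members with every value above 0. It had 0.35, 0.43, 0.23 and 0.43 on arrays 1 to 4. Both dye orientations lay within this narrow band, and the log2 ratio was 0.36 ± 0.09 (SD, n = 4 arrays), 1.28-fold, with an interval of 0.03 to 0.69 and adjusted p = 0.31 by limma. SSS1, the small subunit that closes the Sec61 channel complex, behaved otherwise. It had 0.62 and 1.11 on the Cy3-treated arrays 1 and 3, and −0.21 and −0.62 on the Cy5-treated arrays 2 and 4. The groups of arrays by dye did not overlap, and its log2 ratio of 0.22 ± 0.78 (adjusted p = 0.482) joins opposite signs.

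The genes of post-translational import had log2 ratios below 0, as did 2393 of all 4090 rows, and each had values of both signs. SEC63, a membrane J protein that engages the ER chaperone Kar2, had 0.20, −0.33, 0.14 and −0.47 on arrays 1 to 4. Its sign followed the dye, and its log2 ratio was −0.12. SEC62 (−0.16), SEC66 (−0.13) and SEC72 (−0.01), the other subunits of that complex, had similarly small ratios. SEC66 was the more even of them, with −0.17, 0.01, −0.20 and −0.16 on arrays 1 to 4. SEC65, a protein of the signal recognition particle, had a log2 ratio of −0.01 ± 0.26. SEC11, the catalytic subunit of signal peptidase, had 0.17 on array 1 and −0.30, −0.28 and −0.48 on arrays 2 to 4, with a log2 ratio of −0.22 ± 0.28 (adjusted p = 0.527).

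The COPII coat had 7 members with values and a median log2 ratio of 0.02. The inner adaptor pair SEC23 and SEC24, whose proteins form a complex that binds cargo, shared an array pattern. SEC23 had −0.02, −0.11, 1.34 and 0.50 on arrays 1 to 4, and SEC24 had −0.19, −0.51, 1.62 and 0.33. In both genes array 3 stood highest and array 4 next, while arrays 1 and 2 lay below 0. The log2 ratios were 0.43 ± 0.66 for SEC23 (adjusted p = 0.477) and 0.31 ± 0.94 for SEC24 (adjusted p = 0.681). Without array 3 they were 0.09 and −0.14, so the size for both, and the sign for SEC24, rested on that array.

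The outer cage pair SEC13 and SEC31 did not show it. SEC31 had 0.10, 0.05, −0.02 and 0.09 on arrays 1 to 4, the narrowest spread of the coat (SD 0.06). SEC13, whose protein is also part of the nuclear pore, had 0.21, −0.18, −0.24 and 0.29. Both genes stayed within 0.29 of 0 on every array. SAR1, the GTPase that starts coat assembly, had a log2 ratio of −0.23 ± 0.30, with −0.65 on array 4. SEC12, its exchange factor, had 0.01 ± 0.25, and SEC16, the scaffold of ER exit sites, had 0.13, −0.07 and −0.18 on arrays 2 to 4.

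Cargo receptors and p24 proteins ran from −0.35 to 0.47 around a median log2 ratio of −0.05. EMP47, a lectin-like receptor that carries glycoproteins out of the ER, had 0.25, 1.00, 0.17 and 0.47 on arrays 1 to 4. All 4 values were above 0, with array 2 far the highest. Its log2 ratio was 0.47 ± 0.37, 1.39-fold, with an interval of 0.11 to 0.84 and adjusted p = 0.27 by limma. Its paralogue EMP46 had a single value, −0.88 on array 3, and was not tested, so the pair could be set side by side on array 3 only.

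ERV14, a receptor for membrane proteins such as those that mark the bud site, had the lowest log2 ratio of all members, −0.35 ± 0.61 (adjusted p = 0.504). Its values were 0.27, −0.17, −0.31 and −1.19 on arrays 1 to 4, so array 4 alone was past 2-fold. ERV15, its paralogue, had −0.19, −0.50 and 0.14 on arrays 2 to 4. ERV41 and ERV46, partners in a receptor that retrieves ER proteins, differed in the sign of their log2 ratios, but both were below 0 on array 2. ERV41 had −0.21, −0.42 and −0.13 on arrays 2 to 4, all below 0, with a log2 ratio of −0.29 ± 0.15 and adjusted p = 0.595. ERV46 had −0.05, −0.10, 0.86 and 0.25 on arrays 1 to 4, again with array 3 highest. Its log2 ratio was 0.24 ± 0.44 (adjusted p = 0.586 by limma).

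The p24 proteins, which shuttle between ER and Golgi as a complex, had ratios near 0. EMP24 had 0.02 ± 0.32, ERV25 −0.06 ± 0.14 and ERP2 −0.05 ± 0.25. In each of the 3, values of both signs occurred. ERV29, the receptor of soluble cargo such as the alpha-factor precursor, had −0.05 and −0.21 on the Cy3-treated arrays 1 and 3 against 0.33 and 0.48 on the Cy5-treated arrays 2 and 4. Its log2 ratio was 0.14 ± 0.32 (adjusted p = 0.683).

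**Figure D2:**
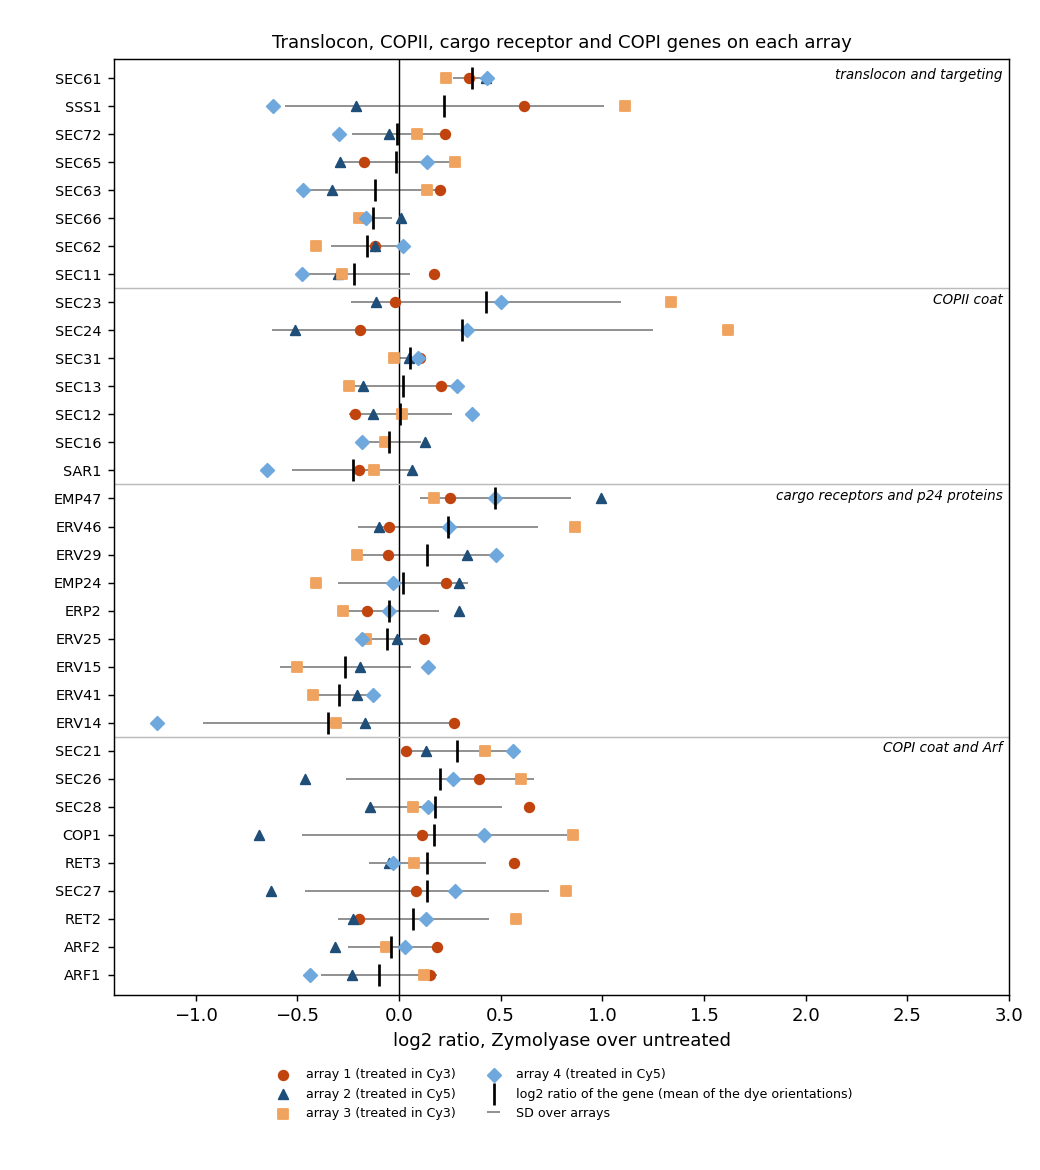
Log2 ratio of Zymolyase over untreated (horizontal axis) on each array for the translocon, COPII, cargo receptor and COPI members with 3 or 4 values (vertical axis, 1 gene per line); symbols are arrays, black bars the log2 ratio of the gene and grey lines its SD over arrays. SEC61 shows its arrays close together, between 0.23 and 0.43, while SEC24 reaches from −0.51 to 1.62.

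All 7 coatomer subunits of the COPI coat had a log2 ratio above 0, where 1697 of all 4090 rows did so. The subunits ran from 0.07 for RET2 to 0.29 for SEC21, with a median of 0.17. None was called, and the direction was not the same on every array: array 2 was below 0 for 6 of the 7, array 3 above 0 for 7, and arrays 1 and 4 above 0 for 6 each. The median over the subunits was 0.11, −0.22, 0.57 and 0.27 on arrays 1 to 4. It was 0.35 on the Cy3-treated arrays alone and −0.05 on the Cy5-treated arrays alone, 0.36 without array 2 and 0.02 without array 4. A common direction therefore held for the means, while array 2 mostly opposed it. The Cy5-treated arrays differed from each other, with medians of −0.22 on array 2 and 0.27 on array 4. The part of dye or of single arrays in this pattern was not tested. The pattern was not particular to COPI. The 4 cage and adaptor subunits of COPII (SEC13, SEC31, SEC23 and SEC24) were also all above 0, with a median log2 ratio of 0.18. Their medians on arrays 1 to 4 were 0.04, −0.14, 0.66 and 0.31. The coatomer group was not among the planned results.

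Of the single subunits, the gamma subunit gene SEC21 was above 0 on all arrays, with 0.03, 0.13, 0.42 and 0.56 on arrays 1 to 4. Its log2 ratio was 0.29 ± 0.25, with an interval of −0.11 to 0.69 and adjusted p = 0.436. COP1, which encodes alpha-COP, had 0.11, −0.69, 0.85 and 0.42. SEC27, the beta-prime subunit and partner of alpha-COP in the outer layer of the coat, followed it closely with 0.08, −0.63, 0.82 and 0.27. SEC26, the beta subunit, had 0.40, −0.46, 0.60 and 0.27. In these 3 genes array 2 was lowest and array 3 highest. RET2 (delta, 0.07 ± 0.37), RET3 (zeta, 0.14 ± 0.29) and SEC28 (epsilon, 0.18 ± 0.33) had smaller spreads; in RET3 and SEC28 array 1 was highest.

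The Arf GTPases that recruit coatomer lay near 0. ARF1 had 0.15, −0.23, 0.12 and −0.44 on arrays 1 to 4, and ARF2 had 0.19, −0.31, −0.07 and 0.03. Their log2 ratios were −0.10 ± 0.29 and −0.04 ± 0.21. The 2 genes are close paralogues, so their rows can share labelled cDNA.

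SEC14 encodes the phosphatidylinositol transfer protein of the Golgi. It had 0.32, −0.59, 1.70 and −0.07 on arrays 1 to 4, the largest single value of any member. Its sign followed the dye, and its log2 ratio of 0.34 ± 0.98 (adjusted p = 0.557) was −0.01 without array 3. YPT1, the Rab GTPase of early Golgi traffic, had −0.14 ± 0.26. SEC4, the Rab GTPase of secretory vesicles, had 0.07 ± 0.12, with no value beyond 0.21 in size. SEC2, the exchange factor of Sec4, had 0.27, 0.36 and −0.13 on arrays 2 to 4. SEC7, the Arf exchange factor, had no value on any array.

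The fusion and tethering factors had log2 ratios between −0.13 and 0.22, with a median of 0.01. SEC1, which binds the assembled SNAREs at the plasma membrane, was above 0 on all 3 arrays with a value, at 0.40, 0.11 and 0.27 on arrays 2 to 4 (0.22 ± 0.15, adjusted p = 0.525). SEC9, a SNARE of the same fusion step, was below 0 on all 3, at −0.37, −0.02 and −0.12 (−0.13 ± 0.18, adjusted p = 0.724). The recycling pair SEC17 and SEC18, the yeast alpha-SNAP and NSF, had −0.13 ± 0.14 and 0.03 ± 0.22. SEC17 was below 0 on every array, with −0.05, −0.08, −0.33 and −0.05. Of the SNAREs between ER and Golgi, SEC22 had 0.03 ± 0.19, and SEC20 had 0.59, −0.51 and 0.38 on arrays 2 to 4. SEC39, of the tether at the ER, had 0.08 and 0.30 on arrays 3 and 4 only.

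The exocyst subunits had ratios of both signs, with a median of −0.03. SEC15, whose protein binds Sec4 on vesicles, had the highest log2 ratio of all members. Its values were 0.80, −0.34, 1.08 and 0.68 on arrays 1 to 4, so 3 arrays lay well above 0 and array 2 below. The log2 ratio was 0.56 ± 0.62, 1.47-fold, with an interval of 0.07 to 1.05 and adjusted p = 0.301 by limma. With arrays 1+4 and 3+2 alone taken as the cultures, SEC15 was called (adjusted p = 0.0299 among rows with 3 or 4 values), where 7.04% of all such rows were called. Among rows with 4 values EMP47 and SEC15 were called, 4.76% of the 42 members, against 10.2% of all 2715 genes. With 1 array left out, the log2 ratio of SEC15 ran from 0.30 (array 4) to 0.81 (array 2), and without array 4 it lay below that of EMP47, at 0.60. EXO84 stood at the other end and was even across arrays, with −0.18, −0.27, −0.37 and −0.49. Its log2 ratio was −0.33 ± 0.13, 1.26-fold lower, with an interval of −0.67 to 0.02 and adjusted p = 0.35.

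The other subunits with 3 or 4 values lay between these. SEC10 had −0.09 ± 0.30, SEC8 −0.17 ± 0.35, SEC5 0.13 ± 0.26 and SEC6 0.04 ± 0.10. Array 4 was highest in each of these 4. SEC3 and EXO70, which anchor the complex at the membrane, had values on arrays 3 and 4 only, of 0.08 and −0.21 for SEC3 and of −0.11 and 0.71 for EXO70. The difference between SEC15 and EXO84 was not tested.

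**Figure D3:**
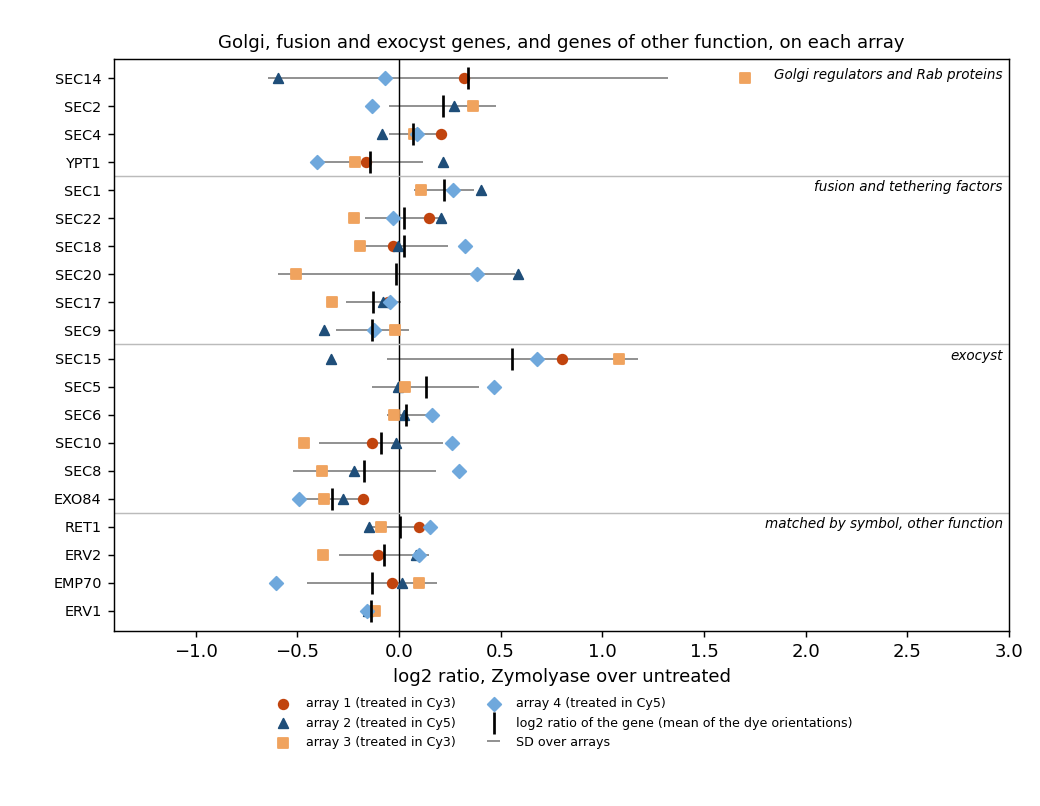
Log2 ratio of Zymolyase over untreated (horizontal axis) on each array for the Golgi, fusion and exocyst members and the members of other function with 3 or 4 values (vertical axis, 1 gene per line); symbols are arrays, black bars the log2 ratio of the gene and grey lines its SD over arrays. EXO84 lies below 0 on every array, and the SEC14 value of 1.70 on array 3 is far from its others.

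The members of other function had ratios close to 0. RET1, of RNA polymerase III, had 0.00 ± 0.15, ERV2 −0.07 ± 0.22 and EMP70 −0.13 ± 0.32. ERV1 had −0.15, −0.12 and −0.16 on arrays 2 to 4, an SD of 0.02, with adjusted p = 0.747. EMP65, which protects soluble proteins in the ER, had 0.58 and −0.55 on arrays 3 and 4 only. Leaving these genes out moved the median of the remaining 49 members with 3 or 4 values to 0.02.

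Large single values sat mostly on array 3. Of 201 member values in the 53 genes, 6 were at least 1 in size (2.99%), against 4.10% of all values in the 4090 rows. Array 3 held 5 of them, those of SEC14, SEC24, SEC23, SSS1 and SEC15, and array 4 held that of ERV14. High values were also most frequent on array 3 over all rows. There 15.2% of values exceeded 0.5, against 8.6%, 7.9% and 9.3% on arrays 1, 2 and 4. Below −0.5 lay 8.8%, 6.5%, 10.1% and 15.8% on arrays 1 to 4. Array 3 exceeded every other array by over 0.5 in 5 of the 42 members with 4 values (11.9%), SEC14, SEC24, SEC23, ERV46 and SEC27, against 8.5% of all 2715 genes. Its part in these values beyond this was not tested.

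Dye orientation moved with the sign in several members. The Cy3-treated mean was the higher in 25 of the 42 members with 4 values (59.5%), against 50.8% of all 2715 genes. The gap of Cy5-treated minus Cy3-treated mean was −1.34 for SEC14, −1.28 for SSS1, −0.80 for SEC24 and −0.77 for SEC15. In the other direction it was 0.54 for ERV29 and 0.52 for EMP47, and 0.99 for SEC20, which had 3 values. On the Cy3-treated arrays alone SEC15, SSS1 and SEC14 were called by limma, with log2 ratios of 0.94, 0.86 and 1.01 and adjusted p of 0.0162, 0.0339 and 0.0419 among rows with 3 or 4 values. These 3 were 7.14% of 42 members, near the 5.29% of all 2762 such rows called in that setting (5.19% of the 2715 with 4 values). The Cy5-treated arrays alone gave them 0.17, −0.42 and −0.33, and called no member. Gene-specific dye effects do not cancel within 1 orientation.

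**Figure D4:**
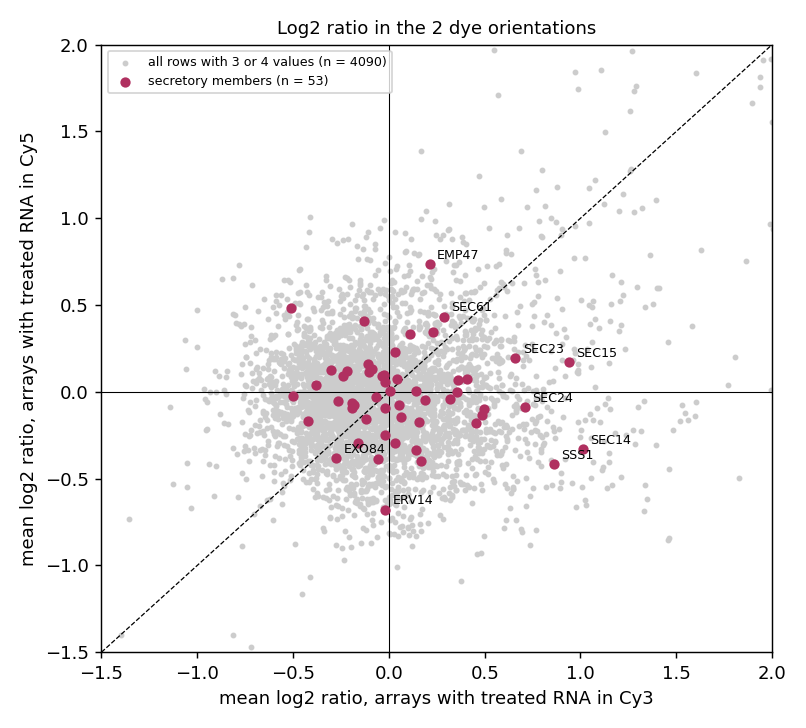
Mean log2 ratio of the arrays with treated RNA in Cy3 (horizontal axis) against that of the arrays with treated RNA in Cy5 (vertical axis); grey points are the 4090 rows with 3 or 4 values, of which 53 lie outside the axes, and red points the 53 secretory members. The dashed line marks equal values in both orientations; SEC14 and SSS1 lie in the lower right, above 0 in one orientation and below it in the other, and SEC61 lies near the line.

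Other genes of the pathway, from lists that hold no member and were chosen with earlier results of these data known, gave 1 call. Of 138 genes in 6 lists, 137 had a row, and 81 had 4 values. Of these 81, 1 was called higher and 0 lower by limma, and of 114 with 3 or 4 values the same 1 and 0. Over all rows 2.21% of 2715 with 4 values and 1.52% of 4090 with 3 or 4 were called. The 114 had a median log2 ratio of −0.06, with 46 above 0, where 1697 of all 4090 rows lay above 0. The called gene was CHS7, an ER protein needed for the export of the chitin synthase Chs3. It had 2.06, 1.59, 1.73 and 1.74 on arrays 1 to 4, a narrow band far above 0. Its log2 ratio was 1.78 ± 0.20, 3.43-fold, with adjusted p = 0.00452 among rows with 4 values.

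The 6 lists themselves had 0 further calls. Translocon partners (24 genes with 3 or 4 values) had a median log2 ratio of 0.00, with GET3, the ATPase of tail-anchored protein insertion, at 0.34 ± 0.24 and the gene of the beta subunit of the signal recognition particle receptor at −0.35 ± 0.25. COPII and cargo genes (16) had −0.02, with SHR3, the ER packaging factor of amino acid permeases, at −0.36 ± 0.16. COPI and Arf genes (14) had −0.09; DSL1, of the ER tether for COPI vesicles, was at 0.48 ± 0.22 and the Arf GTPase-activating gene AGE1 at 0.40 ± 0.40. Golgi tethers and Rab genes (25) had −0.05, with the golgin COY1 at 0.45 ± 0.12 and TRS120, of a Rab exchange complex, at 0.38 ± 0.37. SNARE and fusion genes (19) had −0.08, with MSO1, a partner of Sec1, at −0.41 ± 0.08 and the SNARE gene BET1 at −0.23 ± 0.14. Clathrin and adaptor genes (16) had −0.06, with APS1, of an adaptor complex, at −0.30 ± 0.34 and the auxilin gene SWA2 at −0.28 ± 0.18.

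Further genes of these lists were named after their values were seen, and SFB3 and KAR2 also varied widely between arrays. SFB3, a paralogue of SEC24, had 0.75, −0.23, 1.71 and 0.72 on arrays 1 to 4 (0.74 ± 0.79, adjusted p = 0.292). KAR2, the ER chaperone that works with SEC63, had 0.60, 0.15, 1.41 and −0.59 (0.39 ± 0.84). In SFB3 array 2 was lowest and array 3 highest, as in SEC24; in KAR2 array 4 was lowest. SVP26, of the COPII and cargo genes, varied less, with −0.18, 0.09, −0.33 and −0.29 on arrays 1 to 4 (−0.18 ± 0.19, adjusted p = 0.586 by limma). None of these genes passed the test.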

How the data were processed

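Two-colour arrays compared RNA of Zymolyase-treated and untreated portions of hog1 cultures. The authors deposited 1 log2 ratio per row and array; for image analysis, background correction, normalization and numerator no source used here gives a description. No spot intensities were used. Base 2 was checked: all 9281 values under a ratio of 1, after signs were turned, equalled the log2 of a number rounded to 4 decimals (56.5% by chance), against 55.4% of 8117 for the inverse ratio (54.9% by chance). Of 6207 yeast rows, 5654 matched a locus tag of RefSeq R64 and took its symbol.

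Cultures were the replicates (n = 2). The arrays were paired in both ways that join opposite dye orientations (1+2 with 3+4, and 1+4 with 3+2). Pairs of like orientation (1+3 with 2+4) were not fitted. Culture means were tested against 0 with limma 3.58.1 (R 4.3.3, lmFit and eBayes). The larger p was kept and adjusted by Benjamini-Hochberg over all tested rows, 2715 with 4 values and 4090 with 3 or 4. In rows with 3 values, a culture with 1 value is that array, and its dye effect does not cancel. There the fitted mean differs from the dye-balanced ratio printed. Intervals are the wider 95% range of the pairings. An adjusted p under 0.05 was called; p-values of members are from the 4-value rows where present.

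The members and lists were chosen with earlier results of these data known. Named in full were members of 1 sign on every array, and for the other lists called genes and up to 2 of 1 sign. SEC15, SSS1, SEC14, ERV14, COP1 and others beyond this rule were described after their values were seen.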

Additional observations from a re-analysis of the deposited data

Results flagged for a closer look

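One member stood out for 1 array far from its other 3. SEC17, the yeast alpha-SNAP, had −0.33 on array 3, against −0.08 to −0.05 on the others. All 42 members with 4 values were examined in this way, and about 2.1 would be singled out by chance.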

How the results depend on the processing

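Among 15 alternatives, 13 called 0 members in either set of rows. With arrays 1+4 and 3+2 as pairs, 2 members were called among rows with 4 values (EMP47 and SEC15), and 1 among rows with 3 or 4 (SEC15, adjusted p = 0.0299 by limma). The Cy3-treated arrays alone called 3 in each. The median of members stayed within its SD over arrays (0.10), and ranged from −0.04 to 0.07 with any 1 array left out. Members of 1 sign numbered 9, and 26 of 42 on the Cy3-treated and 23 of 53 on the Cy5-treated arrays alone, where fewer arrays must share a sign, 12 to 21 with 1 array left out. Signs turned for SSS1 (−0.42), SEC14 (−0.33) and SEC24 (−0.089) on the Cy5-treated arrays. With 1 array left out, SEC14 ranged from −0.0053 (array 3) to 0.69 (array 1), and SEC24 from −0.14 (array 3) to 0.76 (array 1). Of 198 comparisons over 14 members, 189 kept direction and call. This count is no measure of robustness. Of the 14, 9 had 1 sign on every array, so leaving out arrays could not turn their direction. Several alternatives also leave the ratio itself unchanged.

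Genes called over all rows with 4 values, and with 3 or 4, were 60 and 62. They were 277 and 288 for pairs 1+4 and 3+2, 31 and 18 with equal scale, 119 and 156 for 4 arrays with a dye term, 97 and 101 without it, 149 and 160 with the culture as a random block, 141 and 146 on the Cy3-treated arrays, and 118 on the Cy5-treated arrays for rows with 3 or 4 values. Leaving out 1 array gave 22 (array 2) to 129 (array 3) for 4 values, 24 (array 2) to 166 (array 3) for 3 or 4. The cause was not tested. Asking only for an array of each orientation let 5107 rows and 57 members enter, of which the same number as before, 4090 and 53, had a p under both pairings. Signal over background is not known here.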
